A study of Mus musculus with 4 samples.

Results

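Wide peaks are the TEAD1 ChIP-seq peaks whose deposited interval spans at least 1000 bp. They numbered 1380 of 21285 peaks in one deposited list (6.48%) and 1084 of 21218 in the other (5.11%), and they held 15.2% and 12.4% of the length that each list covers. The members were chosen by width alone, and all of them are counted below. The cells were neonatal mouse cardiac fibroblasts of 2 kinds, OE-TEAD1 with overexpressed TEAD1 and OE-NC as the overexpression negative control. In ChIP-seq, DNA bound by a protein is pulled down with an antibody and sequenced, and each kind of cell gave 1 immunoprecipitated library and 1 input library, where input is chromatin from the same preparation sequenced without precipitation. There were thus 4 groups of 1 library and no replicates, so no spread between cultures is known. The 2 peak lists were each made against input, and the labels tie neither to a kind of cell. They are named list 1 and list 2, and nothing below compares overexpression with control. For the antibody, the expression vector and the number of animals behind a culture nothing is given in the sources used here. No expression data were analysed here, so the fibroblast identity of the cells was not checked, and peaks near marker genes are given only as counts.

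TEAD1 is a DNA-binding protein of the Hippo pathway. It recruits the coactivators YAP and TAZ, which the Hippo kinases keep out of the nucleus, to the MCAT element, whose core is GGAATG. In fibroblasts YAP, TAZ and TEAD proteins are known to act largely at distal enhancers, often beside AP-1 sites with the sequence TGANTCA, and to drive genes of the cytoskeleton, matrix and growth control. A single binding site usually gives a narrow peak, and a wider interval can hold several summits or a broad slope of signal.

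Sequence could be read only where a promoter window of the RefSeq table (GRCm38.p6, 250 bases before to 50 after a transcription start) lay wholly inside a wide peak. This held for 29 windows in list 1 and 33 in list 2. Both cores were searched on both strands: GGAATG and TGANTCA. The 2 motifs can share at most 2 bases at their edges. The upstream 250 bases of 5 windows are shown because they are the windows of named genes, Ankrd1 and Fgf7, followed by the 3 further genes whose wide peak had the highest −log10 q in either list. Ankrd1 lies at chr19:36119845-36120094 (minus strand), Fgf7 at chr2:126034408-126034657 (plus strand) and Gm19705 at chr1:136683146-136683395 (plus strand). Gm41405 lies at chr15:102045068-102045317 (plus strand) and Calhm5 at chr10:34096520-34096769 (minus strand). Each is written 5′ to 3′ on the strand of its gene, in lower case, with matches to either core in capitals.
Ankrd1: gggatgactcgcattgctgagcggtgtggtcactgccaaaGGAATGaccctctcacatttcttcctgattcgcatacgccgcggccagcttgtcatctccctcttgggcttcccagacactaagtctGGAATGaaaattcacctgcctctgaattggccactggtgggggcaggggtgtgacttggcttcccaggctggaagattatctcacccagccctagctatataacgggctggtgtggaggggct
Fgf7: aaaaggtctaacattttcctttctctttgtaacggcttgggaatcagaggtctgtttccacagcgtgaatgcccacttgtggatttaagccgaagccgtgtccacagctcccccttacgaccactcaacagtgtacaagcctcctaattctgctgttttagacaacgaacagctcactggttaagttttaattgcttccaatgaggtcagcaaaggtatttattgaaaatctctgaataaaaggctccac
Gm19705: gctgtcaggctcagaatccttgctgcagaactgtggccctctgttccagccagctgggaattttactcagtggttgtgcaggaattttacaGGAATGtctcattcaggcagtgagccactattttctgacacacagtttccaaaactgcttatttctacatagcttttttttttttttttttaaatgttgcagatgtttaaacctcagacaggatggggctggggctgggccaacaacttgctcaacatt
Gm41405: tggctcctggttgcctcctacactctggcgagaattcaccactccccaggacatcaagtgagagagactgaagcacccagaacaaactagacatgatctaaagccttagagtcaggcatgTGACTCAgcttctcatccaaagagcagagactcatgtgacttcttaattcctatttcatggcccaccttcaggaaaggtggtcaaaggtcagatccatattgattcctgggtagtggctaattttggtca
Calhm5: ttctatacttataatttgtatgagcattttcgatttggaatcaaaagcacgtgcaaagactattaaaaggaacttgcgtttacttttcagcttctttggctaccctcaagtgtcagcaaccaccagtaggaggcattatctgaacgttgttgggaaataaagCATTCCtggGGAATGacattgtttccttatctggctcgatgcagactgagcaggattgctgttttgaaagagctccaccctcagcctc

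Ankrd1 encodes a stress-induced ankyrin repeat protein of the heart and is a standard YAP/TEAD target. Its window held GGAATG at 210 and at 123 bases before the start, and the first of these lay 41 bp from the summit in list 1 and 27 bp from it in list 2. In Gm19705, a long non-coding RNA gene, the match lay 17 bp from the summit of list 1 and 16 bp from that of list 2. Calhm5, which encodes a calcium homeostasis modulator channel protein, held 2 matches on opposite strands within 6 bp of its list 1 summit. Gm41405, another non-coding gene, held TGACTCA, a form of the AP-1 core, 704 bp from its summit. The Fgf7 window held neither core in these letters. Kat2b, an acetyltransferase gene named after its values were seen, held GGAATG at 3 places, all within 43 bp of the summit in both lists.

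Over all windows inside wide peaks, GGAATG was present in 9 of 29 in list 1 (31.0%, Wilson 95% interval 17.3 to 49.2) and in 13 of 33 in list 2 (39.4%, 24.7 to 56.3). It was present in 14.6% of all 32585 promoter windows of the same length. Windows inside narrower peaks held it in 40.2% (31.9 to 49.04, 122 windows) and 38.1% (29.9 to 47.1, 118 windows). TGANTCA was present in 11 of 29 (37.9%, 22.7 to 56.0) and 8 of 33 (24.2%, 12.8 to 41.0), against 7.85% of all windows, and in 30.3% and 31.4% of windows inside narrower peaks. The shares in wide and narrower peaks therefore overlapped within counting error, and both lay above the share of all windows. Of the windows inside wide peaks 65.5% in list 1 (47.3 to 80.1) and 63.6% in list 2 (46.6 to 77.8) belonged to long non-coding RNA genes, against 35.5% of all windows. Windows inside narrower peaks had 53.3% (44.5 to 61.9) and 55.1% (46.1 to 63.8), so a high share was not particular to wide peaks. The matches are descriptions of letters, not binding sites, and most wide peaks hold no promoter window and were not searched.

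The width distribution fell smoothly through 1000 bp, so wide peaks are the tail of the distribution and not a separate class. Their median width was 1184 bp in list 1 and 1179 bp in list 2, and the widest reached 3544 and 2701 bp. At least 1500 bp was reached by 231 and 154 peaks. Because the rule used width, the strength of these peaks is given as a description. The fold over input, the authors' ratio of ChIP signal to local background at the summit, had a median of 13.95 in list 1 and 16.01 in list 2, against 6.12 and 6.63 for narrower peaks. The depth behind a peak, recovered from the deposited fold and p as a whole number of ChIP fragments at the summit, had a median of 45 fragments in list 1 and 54 in list 2. Narrower peaks had 18 and 21. Across all peaks of a list width and fragments had a Spearman rank correlation of 0.688 in list 1 and 0.647 in list 2, described here without a test since the 2 measures share the same pileup. At the threshold itself, 36 peaks of 990 to 999 bp in list 1 had a median fold of 16.1 and 54 peaks of 1000 to 1009 bp had 12.9. The corresponding peaks of list 2 numbered 44 and 55, with median folds of 15.5 and 16.8.

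**Figure D1:**
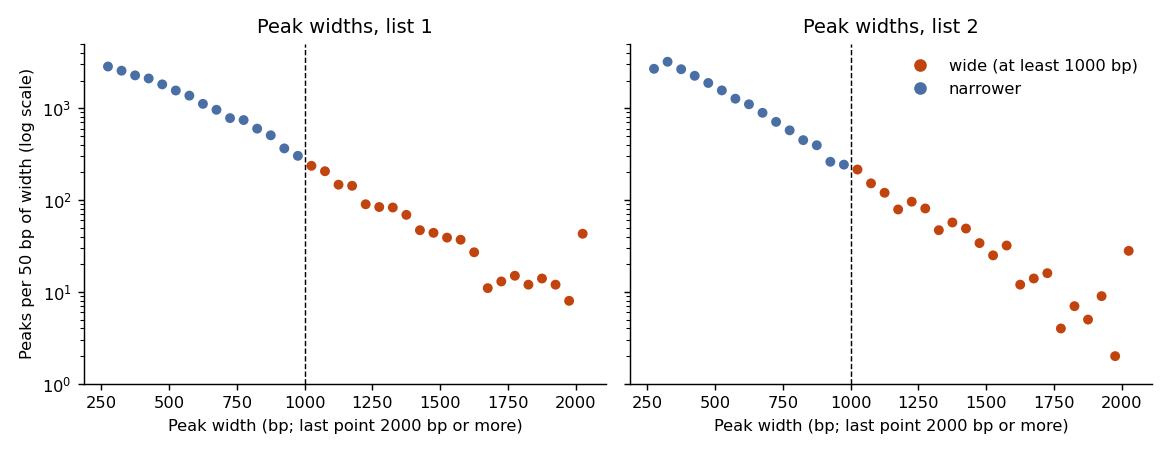
Number of peaks (vertical axis, log scale) in each 50 bp class of peak width (horizontal axis, bp) for list 1 and list 2, with the last point holding all peaks of 2000 bp or more. Counts fall without a break at 1000 bp, the dashed line that separates the wide peaks, 1380 in list 1 and 1084 in list 2, from the narrower ones.

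The summit of a wide peak often lay off centre. When the interval was cut into 3 equal parts, the summit fell in the central one in 48.1% of wide peaks in list 1 (Wilson interval 45.5 to 50.8) and 42.1% in list 2 (39.2 to 45.0). Among narrower peaks the shares were 68.5% (67.9 to 69.2) and 71.5% (70.8 to 72.1). The summit position is a measure of the same peaks and the same signal as the width.

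Nearly all wide peaks were found in both lists. In list 1, 1348 of 1380 wide peaks overlapped a list 2 peak of any width, or 97.7% (Wilson interval 96.7 to 98.4). In list 2 the number was 1073 of 1084, or 98.98% (98.2 to 99.4). Peaks of any width overlapped in 70.9% and 71.4% of cases, and narrower peaks in 69.1% and 69.9%. A wide interval can meet another peak more easily, so the summit alone was also asked about. It lay inside a peak of the other list for 96.3% of wide peaks in list 1 and 98.0% in list 2, against 67.7% and 68.6% of narrower peaks.

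Much of this gap moved with depth. At least 25 fragments at the summit stood behind 84.9% of wide peaks in list 1 and 89.2% in list 2, but behind only 31.0% and 39.1% of narrower peaks. Among peaks with 15 to 24 fragments, 91.6% of 179 wide peaks in list 1 overlapped (86.6 to 94.9) against 71.4% of 7760 narrower peaks. In the same class of list 2 the shares were 91.7% of 109 wide peaks and 65.3% of 7656 narrower ones. By summit position these became 84.9% against 70.4% in list 1 and 86.2% against 63.9% in list 2. With 25 to 49 fragments the overlap was 99.3% against 95.6% in list 1 and 99.7% against 93.0% in list 2. Above that depth there was almost nothing left to differ: with 50 to 99 fragments all 405 and 366 wide peaks overlapped, as did 99.6% and 99.4% of narrower peaks. The weakest class, 8 to 14 fragments, held 29 wide peaks in list 1, of which 16 overlapped. List 2 held only 8 there, of which 7 overlapped. Narrower peaks this weak overlapped at rates of 37.5% (list 1) and 34.5% (list 2). Judged by summit, the list 1 share became 44.8% for wide peaks (28.4 to 62.5) against 34.4%. The list 2 count dropped to 3 wide peaks (37.5%, 13.7 to 69.4), against 31.6% of narrower ones. Both wide summit intervals contain the narrower share, so these small numbers cannot show a gap by summit.

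**Figure D2:**
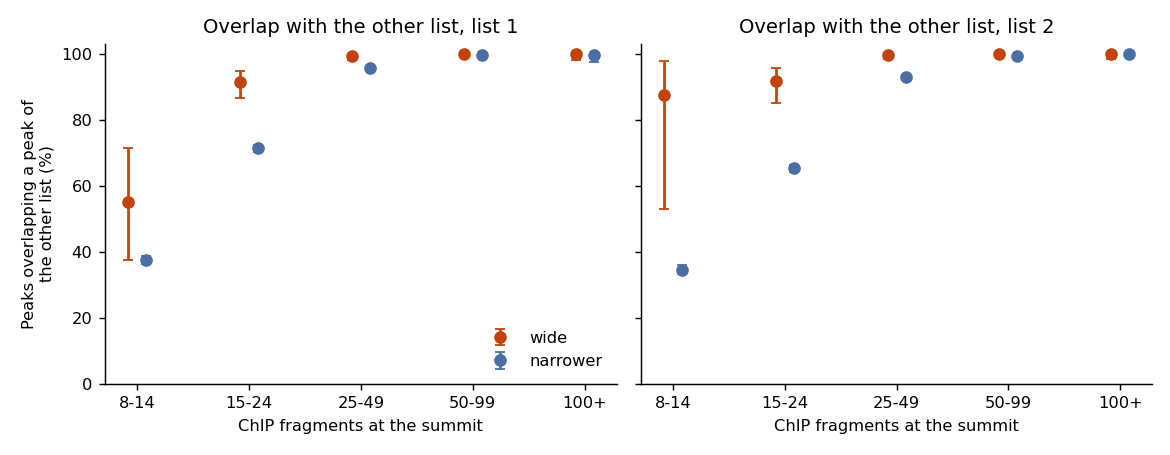
Percentage of peaks that overlap a peak of the other list (vertical axis) in classes of ChIP fragments at the summit (horizontal axis), for wide and narrower peaks of each list, with Wilson 95% intervals as bars. Wide peaks lie above narrower ones at 15 to 24 fragments (91.6% against 71.4% in list 1), and both are near 100% from 50 fragments on.

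Agreement on being wide was lower than agreement on place. The overlapping peak was itself wide for 650 wide peaks of list 1, or 47.1% (44.5 to 49.7), and for 650 of list 2, or 59.96% (57.02 to 62.8). Of narrower peaks, 2.46% in list 1 and 4.08% in list 2 overlapped a wide peak of the other list. Taking peaks that were each other's best overlap, 648 pairs were wide on both sides. A further 698 were wide only in list 1 and 423 only in list 2. The summits of the pairs wide in both lay a median of 18 bp apart (quartiles 6 and 40 bp), and those of the 13246 pairs wide in neither lay 26 bp apart. Pairs that were wide in list 1 alone had median widths of 1131 bp there and 764 bp in list 2. Pairs wide in list 2 alone had 791 bp in list 1 and 1126 bp in list 2. Of the narrower partners 52.1% of those in list 2 and 58.2% of those in list 1 were still at least 750 bp wide.

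Folds at the paired sites are given as a description, since the pairs were grouped by width, which moved with fold. In pairs wide on both sides the list 2 fold exceeded the list 1 fold by a median of 0.24 on the log2 scale (SD 0.51), with median folds of 15.9 and 18.3. The log2 ratio was -0.01 (SD 0.54) in pairs wide in list 1 alone, and 0.36 (SD 0.52) in pairs wide in list 2 alone. It was 0.15 (SD 0.55) in pairs wide in neither. With 1 library behind each list these ratios cannot be set against replicate error.

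**Figure D3:**
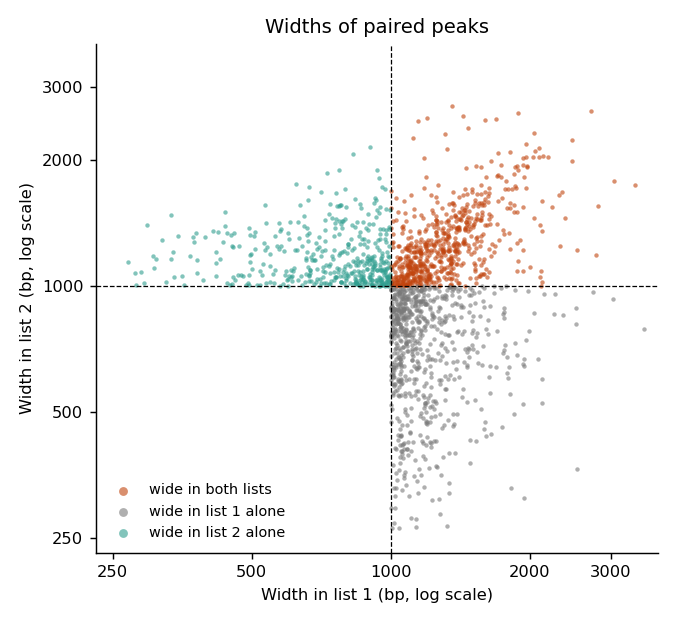
Width in list 1 (horizontal axis, bp, log scale) against width in list 2 (vertical axis, bp, log scale) for pairs of mutually best overlapping peaks that were wide in at least 1 list, 1 point per pair. Dashed lines mark 1000 bp, and the pairs wide in only 1 list (698 and 423) spread down from the line to lower widths and do not form a separate cloud.

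Some wide peaks were single intervals in one list and several in the other. In list 1, 122 wide peaks (8.84%) overlapped 2 or more list 2 peaks, and in list 2 there were 68 (6.27%). Among narrower peaks 5 in list 1 and 12 in list 2 did so. The rule used width, and a shorter interval has less room for 2 partners, so these counts are a description. The farthest summits of the overlapping peaks lay a median of 965 bp apart for list 1 (quartiles 787 and 1158 bp) and 942 bp apart for list 2. One of them lay within 50 bp of the wide peak's own summit in 102 of the 122 and in 50 of the 68. Among the 10 widest peaks of each list, which have the most room for partners, 9 in list 1 and 6 in list 2 were divided in this way.

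The widest peak of all, 3544 bp at chr12:82245250-82248793 inside Sipa1l1, which encodes a GTPase-activating protein for Rap, was 37.4-fold over input in list 1 (95% counting interval 30.9 to 44.9). List 2 had 2 peaks there. One of 791 bp was 36.7-fold over input with its summit 6 bp from that of list 1, and one of 470 bp and 7.30-fold had its summit at -2070 bp from it. The second, 3387 bp inside Myl12a, a gene for a regulatory light chain of non-muscle myosin, was 36.7-fold in list 1. Its 3 list 2 partners were 45.7-, 12.6- and 4.19-fold and 1748, 627 and 343 bp wide. Kansl2, a subunit of a histone acetyltransferase complex, had a 3037 bp peak in list 1 over 3 list 2 peaks of 26.6-, 10.1- and 13.6-fold. Nrp1, the semaphorin and growth factor co-receptor neuropilin, also had 1 wide interval (2517 bp, 19.8-fold) over 3 narrower ones. These were the only 3 wide peaks with 3 partners, and none of list 2 had so many.

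Other wide intervals of list 1 lay near Tmx1 (3041 bp, 149 kb from the gene's end), Vmp1 (2816 bp) and inside Ahnak (2781 bp). Dusp6, a phosphatase of ERK, had one of 2737 bp at 21.1 kb from a gene end. Eea1, 192 kb from its peak, and Col1a2 followed with 2538 and 2534 bp. Col1a2, a type I collagen gene, was the protein-coding gene nearest to the 2534 bp interval, at 47.9 kb. That interval was 10.3-fold over input in list 1 (6.90 to 14.8) and met 2 weak list 2 peaks of 275 and 365 bp and 3.44- and 4.71-fold. In list 2 the widest peaks outside chromosome 9 are named by the nearest protein-coding gene. Inside the gene lay those of Rapgef2, a Rap exchange factor (2625 bp), and Ly6f (2525 bp). Outside it lay those nearest to Tsc22d2 (2550 bp, 42.1 kb away), the transcription factor gene Nfib (2510 bp, 124 kb) and Tubb2b (2506 bp, 13.7 kb). Peaks nearest to Ubash3b (2485 bp, on chromosome 9, 319 kb away) and inside Tm4sf1 (2325 bp) were also among the 10 widest.

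Sites that were wide as 1 interval in both lists were headed by Rapgef2. It measured 2718 bp in list 1 with a fold of 15.4 (11.2 to 20.8) and 2625 bp in list 2 with a fold of 21.6 (16.6 to 27.7), at 105 kb from an end of the gene and inside it. A site 32.9 kb from Tigit followed, with 2470 and 2237 bp and 35.7- and 26.2-fold over input. Next were sites near Spaca6 (2096 and 2146 bp) and Anapc13 (2054 and 2105 bp). Sites in or near Mcc, Tm4sf1, Deptor, 1810013L24Rik and Rb1cc1 were at least 2033 bp wide in both lists. Cald1, the gene of the actin-binding protein caldesmon, held one of 2468 and 1990 bp in its span, 14.5- and 19.2-fold over input. The lowest fold among these 10 sites was 12.3 (9.02 to 16.3), at Deptor in list 1.

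Of the 10 wide peaks of highest −log10 q, 3 in list 1 and 5 in list 2 lay inside a protein-coding gene. The first of list 1 was a 1232 bp peak 710 kb from Cited2, the nearest protein-coding gene, which encodes a coregulator that binds CBP and p300. It was 93.4-fold over input in list 1 (84.3 to 103.2) and 123-fold in list 2 (111 to 136), on 383 and 373 fragments. A site inside Pakap, 7.59 kb from an annotated start, came first in list 2, with 118-fold (108 to 128) on 548 fragments. In list 1 it was 80.6-fold (72.6 to 89.2) on 372. Pard3, a gene of cell polarity, held a peak of 146-fold in list 2 (133 to 161) and 95.5-fold in list 1 (84.2 to 108), the highest fold of any wide peak in list 2. Pgrmc2 (102- and 122-fold, 102.5 kb away) and Myc (59.7- and 101-fold, 338 kb away) were among the first 10 of both lists, as was 2610008E11Rik (53.8- and 118-fold, 8.89 kb away). Wdr70, Ggta1, Lhfp and Gm52140 were named in list 1 only, with 88.8-, 91.1-, 85.2- and 47.9-fold, and each overlapped a list 2 peak. Bmp4 was named in list 2, with a peak of 122-fold (110 to 136) at 127 kb from the gene, and 73.8-fold in list 1. Bmp4 encodes a secreted ligand of the TGF-beta family. Ggta1 was the only 1 of these sites with the lower fold in list 2, at 65.6.

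A block of chromosome 9 between 6 and 9 Mb had a raised local background and supplied 6 wide peaks to list 1 and 12 to list 2. Their median background was 4.86 fragments in list 1 and 10.8 in list 2, while all wide peaks had medians of 2.08 and 2.24. The block gave list 2 its widest peak (2701 bp inside Pdgfd, 43.1-fold on 498 fragments) and the next but one (2591 bp, also inside Pdgfd, 49.5-fold on 587 fragments). Pdgfd encodes a platelet-derived growth factor. It also gave 3 of the 10 highest −log10 q of list 2, 2 inside Pdgfd and 1 inside Cep126. The part of the raised background in these widths was not tested. Without the block the count was 1374 wide peaks in list 1 and 1072 in list 2.

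The 32 wide peaks of list 1 and 11 of list 2 with no partner were weak. Their median depth was 17.5 fragments in list 1 and 18 in list 2, and their highest folds were 17.6 and 8.03. The widest in list 1 lay inside Lig1, a DNA ligase gene (1647 bp, 10.6-fold, interval 7.20 to 15.2, 28 fragments). Foxp1, Itpr1, Kcne4 and Tex14 were the next nearest genes, with folds of 7.16, 5.14, 4.59 and 3.62. In list 2 the widest were near Frmd8 (1340 bp, 4.94-fold), Synpr (8.03-fold), Cuedc1 (4.57-fold), Ckap4 (4.77-fold) and Dst (7.31-fold). Of the 32 in list 1, 4 had 25 to 49 fragments, a depth at which 547 of 551 wide peaks overlapped.

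Wide peaks lay farther from genes than narrower peaks. The summit fell inside the annotated span of a protein-coding gene for 605 wide peaks of list 1, or 43.8% (41.2 to 46.5), and for 459 of list 2, or 42.3% (39.4 to 45.3). The share was 48.4% and 47.7% over all peaks and 48.7% and 48.0% over narrower peaks. The difference of wide from narrower peaks was -4.85 percentage points in list 1 (Newcombe 95% interval -7.54 to -2.13) and -5.69 in list 2 (-8.68 to -2.64). Within 10 kb of a gene end lay 327 wide peaks of list 1, or 23.7% (21.5 to 26.0), and 248 of list 2, or 22.9% (20.5 to 25.5). All peaks had 29.8% and 28.9%. Here the difference from narrower peaks was -6.52 points (-8.78 to -4.12) in list 1 and -6.36 (-8.84 to -3.69) in list 2. Within 1 kb of an end there were 3.41% and 3.598% of wide peaks, against 5.44% and 5.13% of narrower ones. Outside spans and over 10 kb from any end lay 42.7% and 44.7% of wide peaks, against 36.4% and 37.4%. Peaks of 1 library are not independent replicates of a condition, and these intervals cover counting error only.

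The share within 10 kb of a gene end fell over the narrower classes and differed little across 1000 bp, while the share inside gene spans behaved otherwise in list 2. In list 1 the share within 10 kb of a gene end was 32.8% at 250 to 399 bp, 27.6% at 600 to 799 bp, 24.7% at 800 to 999 bp and 24.5% at 1000 to 1199 bp. In list 2 the same classes had 31.7%, 25.3%, 25.7% and 23.5%. Inside spans lay 46.5% of list 1 peaks at 800 to 999 bp and 44.5% at 1000 to 1199 bp (44.2 to 48.8 and 40.97 to 48.2). In list 2 the share stayed between 47.3% and 48.7% up to 999 bp and was 42.9% at 1000 to 1199 bp (38.9 to 47.04). Peaks of like depth were compared as well. At 25 to 49 fragments 23.0% of wide and 29.0% of narrower peaks of list 1 lay within 10 kb of an end, and 22.5% and 28.6% in list 2. At 50 to 99 fragments they were 24.9% and 27.2% in list 1 (20.97 to 29.4 and 24.9 to 29.7) and 23.2% and 27.7% in list 2 (19.2 to 27.8 and 25.7 to 29.8). At 100 or more fragments the shares were 23.6% and 27.04% in list 1 (18.4 to 29.7 and 21.7 to 33.1). In list 2 they were 19.9% and 27.6% (15.3 to 25.5 and 23.98 to 31.4). The separate intervals of wide and narrower peaks overlapped in both lists in these 2 deepest classes, where wide peaks still had the lower shares. Intervals of the difference were not computed by depth, so the overlap does not show that no gap remained. At 15 to 24 fragments list 2 showed no such gap, with 29.4% and 29.5%. Inside gene spans at 100 or more fragments lay 41.7% of wide and 49.8% of narrower peaks of list 1 (35.3 to 48.3 and 43.4 to 56.2). In list 2 they were 38.1% and 50.7% (32.2 to 44.5 and 46.6 to 54.9). At 50 to 99 fragments the span shares were 43.0% and 48.2% in list 1 (38.2 to 47.8 and 45.5 to 50.9). In list 2 they were 42.6% and 47.3% (37.7 to 47.7 and 45.0 to 49.6). With 25 to 49 fragments they were 45.0% and 48.1% in list 1 (40.9 to 49.2 and 46.7 to 49.6). The same class of list 2 had 45.2% and 48.1% (40.2 to 50.3 and 46.8 to 49.4). The separate span intervals overlapped in both of these classes.

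**Figure D4:**
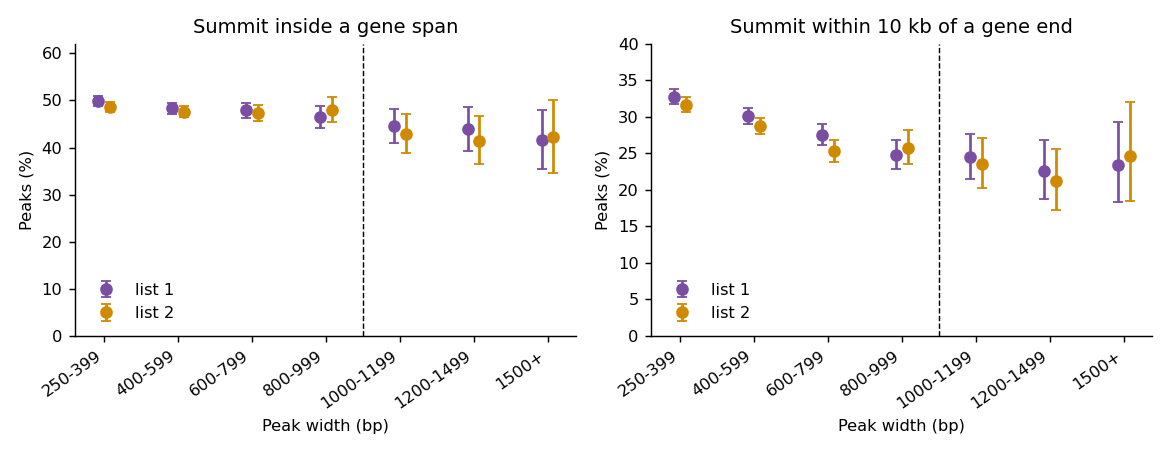
Percentage of peaks (vertical axis) with the summit inside a protein-coding gene span, left, and within 10 kb of a gene end, right, by class of peak width (horizontal axis, bp), for both lists with Wilson 95% intervals as bars. The dashed line marks 1000 bp, and the share within 10 kb falls from 32.8% in the narrowest class of list 1 to 24.5% at 1000 to 1199 bp.

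Transcription starts showed a different pattern, as far as the promoter table reaches. Chromosome 18 was not analysed here for starts. Of the other wide peaks 34 of 1345 in list 1 (2.53%, 1.81 to 3.51) and 35 of 1060 in list 2 (3.30%, 2.38 to 4.56) held a start, against 1.54% and 1.43% of all peaks and 1.47% and 1.32% of narrower ones. Wider intervals cover more sequence, and per Mb covered the order was not the same in both lists: wide peaks held 20.9 starts per Mb in list 1 and 31.5 in list 2, and narrower peaks 31.8 and 29.7. A start inside a wide peak was thus more frequent per peak but not per base in list 1.

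Wide peaks stood in denser neighbourhoods. The next summit of the same list lay a median of 7.34 kb away in list 1 and 7.53 kb in list 2, against 12.8 and 13.2 kb for narrower peaks. At least 3 other summits lay within 50 kb of 55.8% of wide peaks in list 1 and 56.6% in list 2, against 43.0% and 40.6% of narrower peaks (differences of 12.8 points, 10.03 to 15.4, and 15.99 points, 12.9 to 18.99). Neighbourhoods were not compared among peaks of like depth, and wide peaks had more fragments at the summit. Another wide summit lay within 25 kb for 16.8% of wide peaks in list 1 and 15.2% in list 2. That share was not computed for narrower peaks. By chromosome the share of peaks that were wide was highest on chromosome 3 in list 1 (8.55%, 7.28 to 10.02) and on chromosome 15 in list 2 (6.77%, 5.58 to 8.20). It was lowest on chromosome 7 in both lists (3.67%, 2.64 to 5.09, and 3.08%, 2.15 to 4.38).

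Among 21627 protein-coding genes, list 1 placed a wide summit no more than 10 kb from either end of 402 (1.86%), and list 2 did so for 290 (1.34%). A narrower summit stood near 26.3% and 26.1% of genes. Both lists had a wide summit near 170 genes (0.786%), which is 42.3% of the list 1 genes and 58.6% of those of list 2. List 1 alone had one near 232 (1.07%) and list 2 alone near 120 (0.555%). The 8 groups of genes tied to Hippo signalling and fibroblasts held 193 distinct genes, of which 22 had a nearby wide summit by list 1 (11.4%) and 17 by list 2 (8.81%). Narrower summits also stood near more of these genes than the 26.3% and 26.1% of all genes: by group from 13 of 25 (Hippo) to 23 of 30 (actin and adhesion) in list 1, and from 15 of 25 to 22 of 30 in the same groups of list 2. The 6 groups of markers of other cells, with 87 members, had 1 and 0. The groups were chosen with earlier results known, and listed genes differ from other genes in length and expression, which was not tested.

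**Figure D5:**
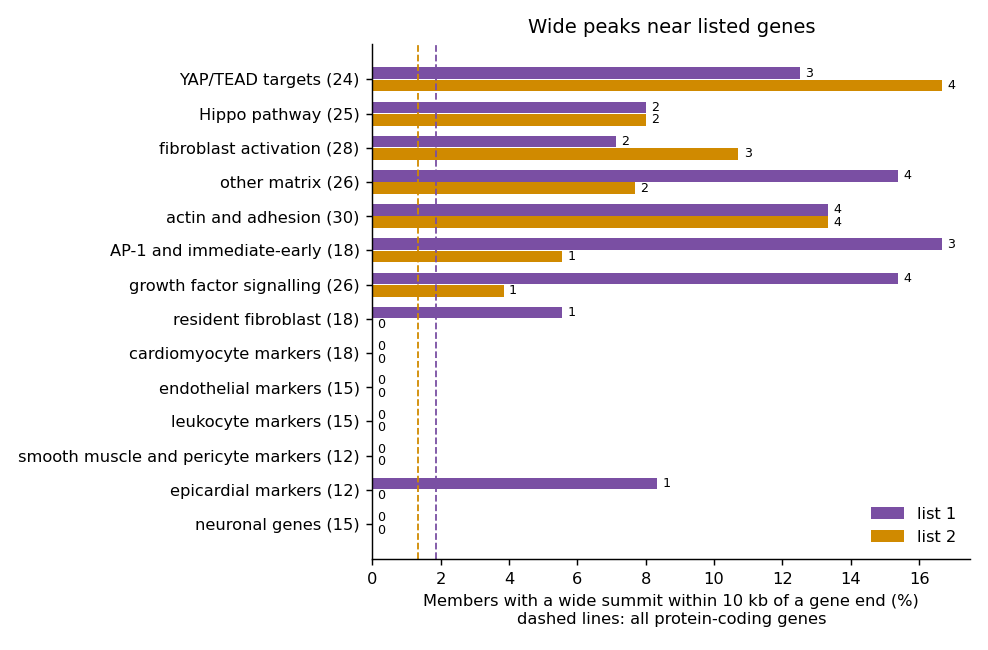
Percentage of members with a wide summit within 10 kb of a gene end (horizontal axis) for each of 14 gene groups (vertical axis, number of members in brackets) in list 1 and list 2, with the number of such members beside each bar and the share of all protein-coding genes (1.86% and 1.34%) as dashed lines. Marker groups of other cells stand at 0 apart from 1 epicardial gene in list 1.

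Among 24 YAP/TEAD targets 3 had a nearby wide summit in list 1 and 4 in list 2. Ankrd1 had 3 in each list. The first was the promoter peak described above, 1889 bp and 35.04-fold in list 1 (28.6 to 42.5) and 1147 bp and 20.2-fold in list 2 (16.5 to 24.5), both on 101 fragments over backgrounds of 1.91 and 4.06. Another lay 9.49 kb upstream of the start (1565 bp, 15.1-fold) and the last 0.644 kb beyond the other end (1166 bp, 9.24-fold), and list 2 had both, at 14.7- and 8.42-fold. Ccn1, which encodes a matricellular protein, had 1 at 1.95 kb from its start, 1053 bp and 29.0-fold in list 1 (23.7 to 35.1) and 1090 bp and 25.2-fold in list 2 (20.6 to 30.5). Cdc42ep3, an effector of Cdc42, had one in list 1 (1105 bp, 9.53-fold) whose list 2 partner was 403 bp wide. Asap1, an Arf GTPase-activating protein, and Crim1, a transmembrane regulator of BMPs, had theirs in list 2 (1054 bp and 12.0-fold, 1001 bp and 13.0-fold), with partners of 870 and 924 bp. Ccn2, encoding connective tissue growth factor, had none: the widest of its nearby peaks were 918 bp in list 1 and 873 bp in list 2.

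The Hippo pathway itself had 2 of 25 members in each list, and they were the same 2. Wwc1, also known as Kibra, an upstream activator of the Hippo kinases, had a peak of 1451 bp and 18.4-fold in list 1 (13.8 to 24.03) and 1705 bp and 27.9-fold in list 2 (22.2 to 34.7), 0.452 kb outside its gene end. Frmd6, another upstream component, held one inside the gene 1.23 kb from its start-side end in list 1, 1540 bp and 8.03-fold (5.57 to 11.2). In list 2 it was 1488 bp and 9.61-fold (6.66 to 13.4). Tead1 had no wide peak nearby, and its peak within 10 kb measured 342 bp in list 1 and 553 bp in list 2.

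Fibroblast activation genes had 2 of 28 in list 1 and 3 in list 2. Ddah1, which breaks down an endogenous inhibitor of nitric oxide synthase, had the strongest, inside the gene 7.92 kb from its end. It measured 1730 bp and 46.9-fold in list 1 (40.3 to 54.4) and 1830 bp and 76.3-fold in list 2 (66.9 to 86.5). Thbs1, encoding thrombospondin-1, had one of 16.5-fold in list 1 and 26.9-fold in list 2. Lox, the collagen cross-linking lysyl oxidase, had one in list 2 (1127 bp, 16.2-fold), with a partner of 898 bp in list 1. Acta2, Postn and Col1a1, the usual markers of activation, had none within 10 kb. The widest peaks near Acta2, the gene of smooth muscle actin, measured 927 and 571 bp. Those near Postn, encoding periostin, measured 444 and 437 bp, and those near Col1a1, a type I collagen gene, 505 and 388 bp.

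Other matrix genes had 4 of 26 in list 1 and 2 in list 2. Col8a1, a short-chain collagen gene, was in both, with 1656 bp and 16.1-fold in list 1 and 1259 bp and 18.1-fold in list 2. Lamb1, a laminin chain that was also among the 18 resident fibroblast genes (1 in list 1, 0 in list 2), had 1045 bp and 43.0-fold in list 1 and a partner of 810 bp. The fibrillin gene Fbn1 (1201 bp, 16.1-fold) and the protease inhibitor gene Timp3 (1123 bp, 9.40-fold) were wide in list 1, and the fibulin gene Fbln2 (1084 bp, 21.1-fold) in list 2. Actin and adhesion genes had 4 of 30 in each list, and 2 of 30 in list 2 with peaks of −log10 q of at least 10. Cav1, the main protein of caveolae, had 1561 bp and 7.63-fold in list 1 and 1057 bp and 6.28-fold in list 2, and the tropomyosin gene Tpm4 had 1496 and 1196 bp. Cald1 (1106 bp, 11.8-fold) was wide in list 1, and Cavin1, a coat protein of caveolae (1127 bp, 12.5-fold), in list 2.

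AP-1 and immediate-early genes had 3 of 18 in list 1 and 1 in list 2. Ier3, a stress-induced early gene, was in both, with 1220 bp and 28.6-fold in list 1 (23.0 to 35.2) and 1650 bp and 41.2-fold in list 2 (34.4 to 48.9). Fosl2, an AP-1 subunit gene, had 1291 bp and 17.99-fold in list 1 and a partner of 948 bp. Klf6, a zinc finger transcription factor gene, had 1042 bp and 12.9-fold and a partner of 475 bp. Growth factor signalling genes had 4 of 26 in list 1 and 1 in list 2. Pdgfc had the strongest in list 1, 1345 bp and 44.3-fold (38.1 to 51.2), and its list 2 partner of 994 bp was stronger still at 97.3-fold. Egfr (1229 bp, 5.45-fold) and Fgf7 (1004 bp, 7.34-fold, interval 4.57 to 11.3) had theirs in list 1. Fgf7 encodes keratinocyte growth factor. Pdgfd was counted in both lists by a peak in the chromosome 9 block, and without that block list 1 had 3 of 26 and list 2 had 0.

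Among markers of other cells, no wide summit lay within 10 kb of any of the 18 cardiomyocyte, 15 endothelial, 15 leukocyte, 12 smooth muscle and pericyte or 15 neuronal genes in either list. Of 12 epicardial genes only Bnc2, encoding basonuclin, had one (1594 bp, 13.3-fold in list 1). These counts lie near the 1.86% and 1.34% of all genes, so zeros in groups of this size say nothing about cell type. Narrower summits stood near 7 of 18 cardiomyocyte and 5 of 15 leukocyte markers in each list, against 26.3% and 26.1% of all genes. They stood near 4 and 1 of the 15 endothelial markers, 4 and 5 of the 12 smooth muscle and pericyte markers, 7 and 6 of the 12 epicardial markers and 4 of the 15 neuronal genes in each list.

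Some microRNA genes had a wide peak nearby. Among 1005 RefSeq hairpins, 17 had a wide summit no farther than 10 kb by list 1 (1.69%) and 9 by list 2 (0.896%). Narrower summits stood near 17.2% and 18.0%. Both lists shared 7 (0.697%): Mir30a, Mir199a-2, Mir214, Mir22, Mir21a, Mir3075 and Mir7067. The mature strands of 5 of these are shown because miR-21, miR-30, miR-199a, miR-214 and miR-22 are well known in heart muscle and fibroblasts. They were picked after the values were seen. Letters are 5′ to 3′, with the seed, bases 2 to 8, in capitals. No 2 of these 5 shared a seed.
mmu-miR-30a-5p: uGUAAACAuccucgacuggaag
mmu-miR-21a-5p: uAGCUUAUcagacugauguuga
mmu-miR-199a-5p: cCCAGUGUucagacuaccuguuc
mmu-miR-214-3p: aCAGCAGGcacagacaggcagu
mmu-miR-22-3p: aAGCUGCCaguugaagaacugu

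Mir30a had the strongest, at chr1:23270697-23271889, 1.17 kb from the hairpin. It was 32.1-fold over input in list 1 (26.9 to 38.1, 131 fragments) and 74.0-fold in list 2 (64.4 to 84.6, 211 fragments), over backgrounds of 3.11 and 1.87. Mir199a-2 and Mir214 lie together inside Dnm3 and shared 1 wide peak, 2.52 kb from Mir214 and 8.07 kb from Mir199a-2, of 1480 bp and 19.2-fold in list 1 (14.6 to 24.9) and 1512 bp and 32.1-fold in list 2 (25.9 to 39.3). Mir22 was near different wide peaks in the lists, 4.79 kb away and 6.26-fold in list 1 and 2.43 kb away and 15.5-fold in list 2. Mir21a lies just inside an end of the annotated Vmp1 span. Its wide peak, outside that span, was the fifth widest of list 1, 2816 bp at chr11:86579883-86582698 and 10.1-fold (6.91 to 14.3, 30 fragments). In list 2 that interval was divided into 2 peaks of 422 bp and 3.90-fold and 1558 bp and 6.00-fold (3.82 to 9.02). The summit nearest to the Mir21a hairpin lay 2.21 kb from it in list 1 and 1.22 kb in list 2. Mir31 had a wide peak 6.58 kb away in list 1 (1204 bp, 11.3-fold).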

How the data were processed

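TEAD1 ChIP-seq and input libraries of OE-NC and OE-TEAD1 cells, 1 of each, lay behind the 2 peak lists. The tools named per the submitters' processing notes are Trimmomatic 0.33 (read trimming), Bowtie 1.1.2 (alignment) and MACS2 (peaks), whose settings the sources used here do not give. The deposited score is 10 times the −log10 q, rounded down, in the authors' lists. The deposited fold is the authors' ratio of ChIP pileup to local background, and the deposited −log10 p and −log10 q come from the authors' peak caller. They served to describe peaks, and to order or filter them inside 1 list.

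The notes name mm39. Coordinates were read as GRCm38, because 317 peaks of list 1 and 293 of list 2 held a RefSeq start as they stood, against 161 to 207 and 146 to 190 after 20 shifts of 10 to 100 kb. They are counted from 1. Exons, introns and UTRs were not analysed here.

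Peak width is end minus start. Solving the deposited fold and p gave the fragments at each summit, whole within 0.02 for all but 2 peaks of each list, and from them exact Poisson 95% intervals of the fold, which hold ChIP counting error alone. Peaks overlapped if they shared 1 bp. Gene ends are the ends of annotated spans of 21627 protein-coding genes, on either side, with no strand. Shares have Wilson intervals and their differences Newcombe intervals, and no p-value was computed. Scripts were tested on simulated data and run with Python 3.11.15, numpy 2.4.6, pandas 2.3.3, scipy 1.17.1 and matplotlib 3.10.9.

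The members and gene lists were chosen with earlier results of these data known. Named genes were those nearest to the 10 widest peaks and the 10 wide peaks of highest −log10 q of each list, up to 5 members of each gene list by width, the 5 widest peaks of each list without overlap, and Ccn1, Ccn2, Ankrd1, Tead1, Acta2, Postn and Col1a1. Some genes that this rule names are not reported here. Alternatives changed the width, the −log10 q limit, the overlap, the gene set, the distance and the chromosomes.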

Additional observations from a re-analysis of the deposited data

How the results depend on the processing

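With a width of at least 1500 bp there were 231 wide peaks in list 1 and 154 in list 2, of which 99.6% and 100.0% were shared and 32.9% and 49.4% met a peak as wide, and 67 and 46 genes had one within 10 kb. Keeping only peaks with −log10 q of at least 10 gave shared percentages of 93.8 and 92.4, because weak partners were removed, and an overlap of at least 50% of both peaks gave 79.1 and 85.2. Counting all annotated genes put 56.2% and 54.8% of wide summits inside a span and 45.1% and 44.4% within 10 kb of an end. Within 1 kb of a protein-coding end there were 3.41% and 3.598%, and within 50 kb 62.5% and 59.8%. The numbers of genes then were 50 and 39 within 1 kb and 1537 and 1130 within 50 kb. Distance to protein-coding starts, an alternative added after the data were seen, gave 14.9% and 14.6% within 10 kb. Of the main results 28 alternatives stayed within the interval or within 1.5 times the count and 26 did not. For the gene groups these numbers were 88 and 52. Leaving out the chromosome 9 block, also added later, moved only the growth factor group of list 2 beyond these limits, from 1 to 0. The same group of list 1 went from 4 to 3. No paired analysis was possible because the labels tie neither list to a library. Lowest depth, 12 fragments in a wide peak, limits the weak folds.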

Other observations

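Wide summits also stood in short runs, described here with examples picked after the values were seen. Linking wide summits no more than 25 kb apart gave 91 runs of 2, 11 of 3, 3 of 4 and 1 of 5 in list 1, and 72 of 2 and 7 of 3 in list 2. The run of 5 lay on chromosome 4 over 52.5 kb near Ifne, an interferon gene, with folds of 9.50 to 14.4. A run of 4 near Mtap, on the same chromosome, covered 22.6 kb with folds of 22.3 to 45.9. Other runs of 4 lay inside or near Galk2 (28.9 kb) and Rai14 (23.4 kb).

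Within gene spans, 496 genes of list 1 and 389 of list 2 held a wide summit, and 89 and 57 of these held 2 or more wide summits. No such count is given for narrower summits, so whether repeated wide summits are unusual was not tested. At least 3 in both lists were held by 8 genes. Lrmda, a gene of 1037 kb, held 5 and 4. Ltbp1, encoding a matrix protein that binds latent TGF-beta, held 4 and 3 over 387 kb, and the transcriptional regulator gene Arid5b 4 and 3 over 187 kb. Stard13 held 4 in each list, and Galk2 4 and 3. Aopep, Cnksr3 and Lhfp held 3 in each. Longer genes have more room for peaks, and no allowance was made for length.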
